A study of Mus musculus with 12 samples.

Results

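SSTC3, a small molecule described as activating the kinase CK1α, was compared with DMSO, a common solvent control, in 4 RNA libraries, 2 per group, which are 4 of the 12 libraries of the series. The members are all libraries whose treatment label names SSTC3 or DMSO. Their cell labels read TREX1-KO BMDM and TREX2-KO BMDM for the SSTC3 libraries and TREX3-KO BMDM and TREX4-KO BMDM for the DMSO libraries, so that the number in the name rises by 1 from library to library, and all 4 give C57BL/6J as the genotype. BMDM stands for bone marrow-derived macrophages, and a TREX knockout is thus named for treated and control cells alike. No dose, time, animal age or clone is given. The question, from the title of the series, is what CK1α does to signalling through cGAS and STING, the route from cytosolic DNA to interferon.

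The counts go against the label BMDM. Of 21 macrophage markers, Adgre1, Itgam, Tyrobp, Aif1, Cybb, Cd53 and C1qa had 0 counts in all 4 libraries, and the list summed to 17.5 and 18.2 CPM (a gene's counts relative to all counts of its library) with SSTC3 and to 16.8 and 16.1 CPM with DMSO. The 15 fibroblast markers, led by Vim, Col1a1, Col1a2 and Fn1, summed to 9468 and 9593 CPM with SSTC3 and to 10880.0 and 10539 CPM with DMSO. Of the 14 tested, 9 were lower and 3 higher with SSTC3. Epithelial, endothelial, lymphoid and erythroid markers summed to at most 3.19 CPM per list in any library. Csnk1a1, the gene of CK1α, had 436 and 432 CPM with SSTC3 against 405 and 423 CPM with DMSO, and its log2 fold change of 0.07 ± 0.04 did not pass (adjusted p = 0.111). The compound is meant to act on the protein, so this transcript is no check of the treatment. Trex1 had no counts in any of the 4 libraries, but its exons lie within Atrip in the annotation, so this checks no knockout.

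The 4 libraries held 16983132 and 16954603 counts with SSTC3 and 17052569 and 16843745 with DMSO, over 21482, 21543, 20266 and 20552 genes in the same order. Of 14151 genes with enough counts to be tested, 53.6% were called, meaning an adjusted p under 0.05 in edgeR's quasi-likelihood test; 27.1% were called higher and 26.5% lower with SSTC3. A call together with a fold change of 2 or more was met by 8.24% of genes on the higher side and by 2.4% on the lower side. These shares are the background for each count below. Genes named for the size of their change were picked among called genes whose groups do not overlap, so non-overlap follows from that choice. Levels are CPM with TMM factors and are given per library, SSTC3 replicates 1 and 2 before DMSO replicates 1 and 2. Log2 fold changes are SSTC3 minus DMSO with a standard error (SE, n = 2 per group). For 32 of 351 genes singled out by rule, this SE lies below the counting error, and for those named here the counting error is given in its place. In bulk RNA, fewer cells of a type and less RNA per cell cannot be told apart, and as no label says that replicates are separate cultures, the tests weigh only library-to-library spread, which may be technical.

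**Figure D1:**
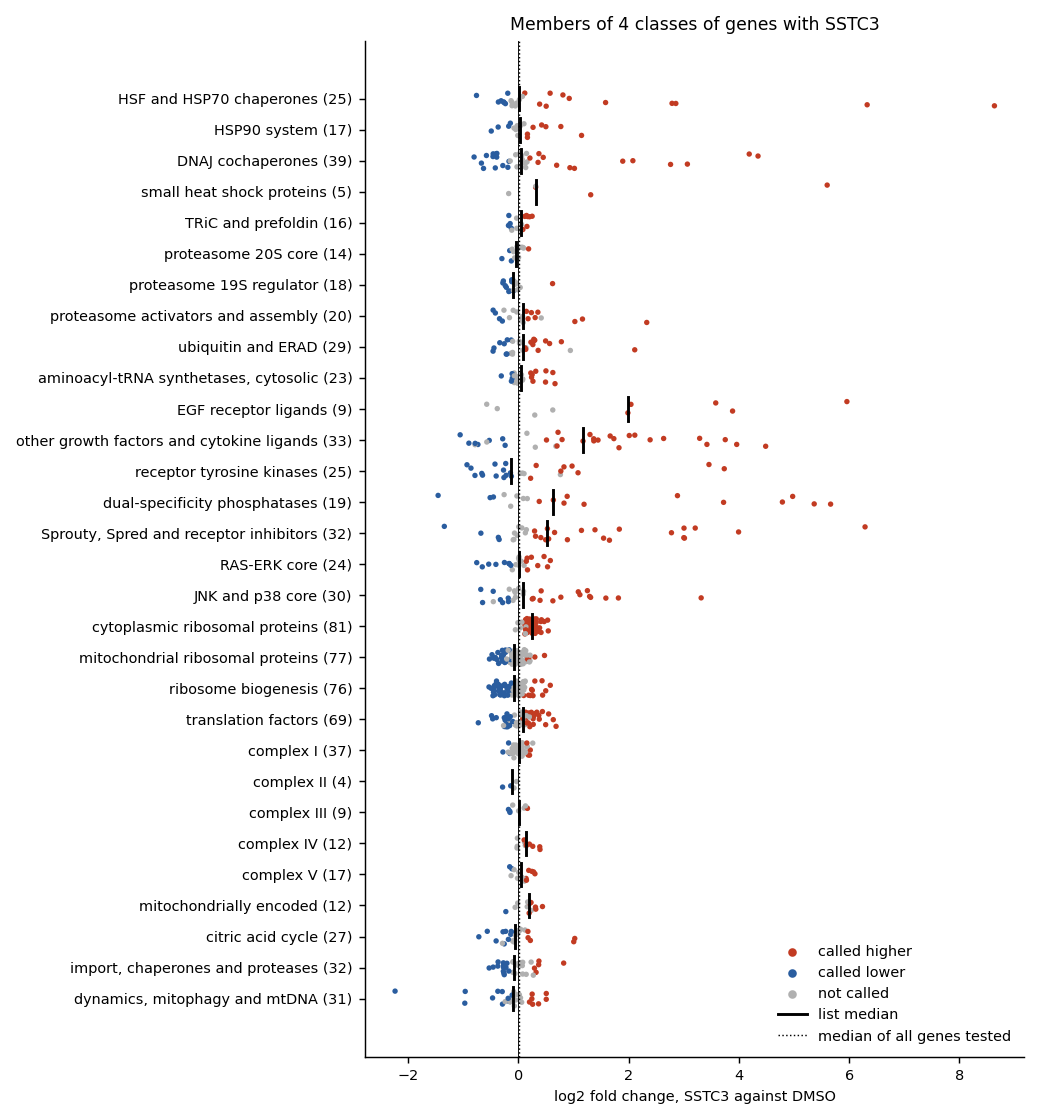
Log2 fold change of SSTC3 against DMSO (x axis) for every tested member of the lists of 4 classes (y axis, number tested in brackets). Red points were called higher, blue points lower and grey points neither; the bar is the list median and the dotted line the median of all genes. Members reach 8.63 among heat shock genes and 6.29 among feedback inhibitors, while all 303 tested members of the ribosome class lie between −0.73 and 0.68.

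Proteostasis genes keep proteins folded or remove them. Heat shock proteins of the HSP70, HSP90 and small families bind unfolded chains, DNAJ proteins and BAG factors steer HSP70, and the proteasome degrades proteins tagged with ubiquitin. The transcription factor HSF1 raises many of these genes under protein stress by binding heat shock elements, which are alternating repeats of the unit nGAAn.

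With SSTC3 the inducible cytosolic chaperones rose steeply. No gene of the lists for TRiC and prefoldin, the 20S proteasome core or its 19S regulator changed by 2-fold. Of 214 proteostasis genes 206 were tested, 72 of them higher and 57 lower (61 and 73 scaled by library totals), and all 19 changes of 2-fold or more were rises, 3 of the tested genes having entered through SSTC3 only. Hspb1, the small heat shock protein HSP27, had 741 and 742 CPM with SSTC3 against 16.3 and 14.2 CPM with DMSO. The groups lie far apart, and the log2 fold change was 5.60, counting error 0.06 (adjusted p = 9.95e-207), or 48.5-fold. Dnajb1, the HSP40 partner of inducible HSP70, had 1386 and 1399 CPM with SSTC3 against 70.4 and 66.5 CPM with DMSO (4.35 ± 0.04). Both libraries of each group again sit close together. Bag3, which links HSP70 to small heat shock proteins and to autophagy, had 405 and 411 CPM with SSTC3 against 54.7 and 58.1 CPM with DMSO (2.86 ± 0.05). Hsph1, the HSP110 nucleotide exchange factor of HSP70, had 1094 and 1098 CPM with SSTC3 against 159 and 158 CPM with DMSO (2.79 ± 0.04), and Dnaja1, another HSP40, had 938 and 924 CPM with SSTC3 against 251 and 251 CPM with DMSO (1.89 ± 0.04).

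Within HSP70 and its regulators, 11 of 25 tested genes were higher and 7 lower, with 5 at 2-fold or more, all of them higher. The summed level of this list was 9779.6 and 9796 CPM with SSTC3 against 5333 and 5303 CPM with DMSO, an increase carried by few genes, since the list median was 0.02 (−0.04 scaled by library totals, so its sign depends on the scaling). Hspa1a and Hspa1b, the inducible HSP70 pair, are near-identical copies, so the split of reads between them is uncertain. Hspa8, the constitutive HSP70, had 2595 and 2618 CPM with SSTC3 against 1731 and 1766 CPM with DMSO (0.58 ± 0.03), and Hspa2, another HSP70, had 25.9 and 28.4 against 10.7 and 7.42 CPM (1.58 ± 0.12). Hspa9, the mitochondrial HSP70, changed by 0.12 ± 0.03, a call that ended with library totals. Hsf1, the factor itself and chosen here after its values were seen, had 103 and 106 CPM with SSTC3 against 109.8 and 107 CPM with DMSO and did not pass (adjusted p = 0.402).

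Of 17 genes of the HSP90 system, 7 were higher and 4 lower. The stress-inducible Hsp90aa1 had 3510.2 and 3330.1 CPM with SSTC3 against 1535 and 1556 CPM with DMSO (1.15 ± 0.03) and the constitutive Hsp90ab1 had 7256 and 7148 CPM with SSTC3 against 5413 and 5336 CPM with DMSO (0.42 ± 0.03). No SSTC3 library overlapped a DMSO library for either, which the choice of genes required. The HSP90 cochaperone gene Chordc1 rose (0.77 ± 0.06), whereas Cdc37l1 (−0.37 ± 0.06) fell. Hspbap1, counted in this list although it is named as an HSPB1-associated protein, fell too (−0.49 ± 0.08). Among 39 tested DNAJ genes, 13 were higher and 13 lower, and all 7 changes of 2-fold or more were rises. Besides Dnajb1 and Dnaja1 these included Dnajb9, an endoplasmic reticulum cochaperone (2.76 ± 0.12), Dnajb4 (1.02 ± 0.07) and Dnaja4, at 39.8 and 43.9 against 1.96 and 2.63 CPM (4.19, counting error 0.17). The exons of Dnaja4 share 44% of their bases with another gene, so its level is uncertain. Of the 9 small heat shock genes listed 5 were tested and 3 rose, among them Cryab, the αB-crystallin gene (1.31 ± 0.12), and Hspb6 (0.31 ± 0.07).

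**Figure D2:**
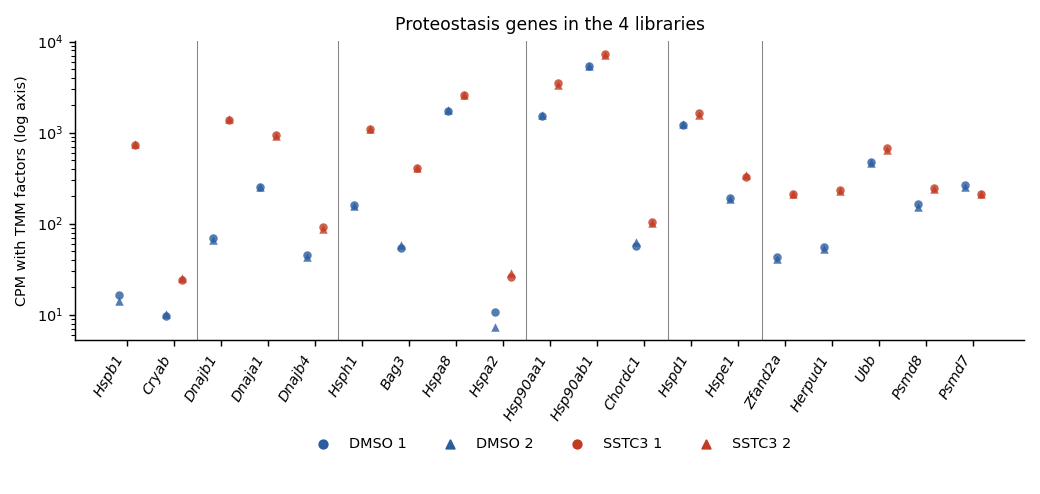
Levels of 19 proteostasis genes in each library (y axis, CPM with TMM factors, log axis). Blue marks are the DMSO and red marks the SSTC3 libraries, circles replicate 1 and triangles replicate 2, and grey lines separate small heat shock, DNAJ, HSP70, HSP90, mitochondrial and ubiquitin or proteasome genes. Hspb1 and Dnajb1 show the widest gaps, and for Psmd7 the order is reversed.

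The core machines did not follow the inducible chaperones. TRiC and prefoldin, which fold actin and tubulin, had 7 of 16 members higher and 4 lower (2 and 6 under library-total scaling), all within 0.25 on the log2 scale. The 20S core of the proteasome, its proteolytic barrel, had 1 of 14 higher and 3 lower (1 and 6 under library-total scaling), with Psma2 at −0.30 ± 0.05. Psmb9, a proteasome subunit gene listed outside these 14, was called higher at 2-fold or more. In the 19S regulator, which unfolds substrates, 10 of 18 fell and 1 rose. Psmd8, the riser, had 244 and 241 CPM with SSTC3 against 163 and 153 CPM with DMSO (0.62 ± 0.04). Its partner subunits Psmd7, at 213 and 212 against 266 and 251 CPM (−0.28 ± 0.04), Psmd3 (−0.24 ± 0.04) and Psmd1 (−0.22 ± 0.04) fell. The list median was −0.10 (−0.15 with library totals, where 13 fell).

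Adaptors of the proteasome moved further. Zfand2a, an arsenite-inducible adaptor also called AIRAP, had 209.7 and 215 CPM with SSTC3 against 43.3 and 41.2 CPM with DMSO (2.33 ± 0.06), and the related Zfand5 had 261 and 260.3 CPM with SSTC3 against 128 and 129 CPM with DMSO (1.02 ± 0.04). In the list of ubiquitin and endoplasmic reticulum-associated degradation, 12 of 29 were higher and 8 lower (10 and 10 under library-total scaling). Herpud1, a membrane component of that degradation, had 235 and 229 CPM with SSTC3 against 54.9 and 52.4 CPM with DMSO (2.11 ± 0.05). The polyubiquitin gene Ubb rose (0.49 ± 0.04), and Ubqln4, a ubiquitin shuttle, fell (−0.46 ± 0.04). Of 23 cytosolic aminoacyl-tRNA synthetases 9 rose and 4 fell, the largest changes being Tars (0.66 ± 0.04), Cars (0.63 ± 0.05), Nars (0.50 ± 0.04) and Aars (0.49 ± 0.03).

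Heat shock elements were searched in the RefSeq promoters of GRCm38.p6, windows of 300 bases from 250 before to 50 after each annotated start, on both strands. The cores GAANNTTC and TTCNNGAA can overlap and were counted together, and a gene with several starts was counted once. Of 19 proteostasis genes called higher at 2-fold or more, 17 had a window and 10 of them (58.8%) held a core. The share was 19.1% over all 162 tested proteostasis genes with a window, 15.8% over all genes higher at 2-fold or more and 13.4% over all 9869 tested genes with a window, and 4587 of all 27025 genes of the table held a core. A match describes letters only. The stretches below are those of 6 of the members with a core before the start, plus the shared promoter of Hspe1 and Hspd1. Hspa1a, Dnajb4 and Psmb9 also held a core before the start and are not shown. The cores are in capitals, and all stretches run 5′ to 3′ on the strand of the gene and end before its start.
Hspb1: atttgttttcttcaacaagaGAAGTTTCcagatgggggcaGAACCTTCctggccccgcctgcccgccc
Hspa1b: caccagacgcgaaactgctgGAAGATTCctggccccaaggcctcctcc
Dnaja1: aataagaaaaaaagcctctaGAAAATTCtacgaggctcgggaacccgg
Dnaja4: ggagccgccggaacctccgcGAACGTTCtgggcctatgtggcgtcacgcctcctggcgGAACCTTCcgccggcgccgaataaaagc
Zfand2a: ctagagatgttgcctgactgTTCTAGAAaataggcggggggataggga
Hsph1: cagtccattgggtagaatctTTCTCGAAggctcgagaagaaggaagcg
Hspe1: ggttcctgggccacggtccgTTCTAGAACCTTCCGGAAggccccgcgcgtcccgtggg
In the same order they lie at chr5:135887782-135887849, plus strand, chr17:34959315-34959362, minus strand, chr4:40722324-40722371, plus strand, chr9:54699449-54699534, plus strand, chr5:139484660-139484707, minus strand, chr5:149636342-149636389, minus strand, and chr1:55088039-55088096, plus strand. Hspb1 and Dnaja4 hold 2 separate cores, while Hspe1 holds an uninterrupted run with 3 overlapping cores. The run of 3 alternating units was present in 0.567% of tested genes with a window. Hsph1 holds such a run too, 36 to 48 bases after 1 of its starts and so outside the stretch shown. Dnajb1, one of the largest risers, held no core in either of its windows.

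Growth factor signalling runs from ligands through receptor tyrosine kinases and the RAS-ERK cascade to immediate early genes. Among its targets are its own inhibitors. DUSP phosphatases inactivate the MAP kinases, Sprouty and Spred proteins act on the cascade near RAS and RAF, and Errfi1 blocks the EGF receptor. Transcripts of these inhibitors are often read as a record of recent ERK activity.

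With SSTC3, ligands and feedback inhibitors rose, while no gene of the RAS-ERK core changed by 2-fold. Of 206 genes of this class 172 were tested, 87 of them higher and 42 lower, and 52 and 3 of these passed 2-fold. Of the tested genes 13 entered only through their SSTC3 level and 2 only through their DMSO level. Hbegf, an EGF receptor ligand, had 183 and 186 CPM with SSTC3 against 16.7 and 14.1 CPM with DMSO (3.58 ± 0.07, adjusted p = 7.61e-136). Ereg, another, had 53 and 51.6 CPM with SSTC3 against 4.03 and 3.04 CPM with DMSO (3.89, counting error 0.14). Areg, the third, had 22.9 and 24.9 CPM with SSTC3 against 0.403 and 0.35 CPM with DMSO, a change of 5.96 with a counting error of 0.40, since no DMSO library had more than 7 counts. The SSTC3 libraries lay above the DMSO libraries for each, again a condition of the choice. Of 10 EGF receptor ligands 9 were tested and 5 rose, 3 of the tested genes having passed the filter only through their SSTC3 level, so that the list median is not given as support.

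Other ligands were measured for 33 of 42 genes, 21 higher and 7 lower, with 6 that entered the test through 1 group only. Lif, a cytokine of the IL-6 family, had 51.1 and 58.3 CPM with SSTC3 against 3.51 and 3.5 CPM with DMSO (3.96, counting error 0.14). Vegfa, the angiogenic factor, had 303 and 315 CPM with SSTC3 against 99.5 and 95.1 CPM with DMSO (1.67 ± 0.05), and Inhba, the activin A subunit, had 142 and 129 CPM with SSTC3 against 24.5 and 27.1 CPM with DMSO (2.39 ± 0.07). Kitl (2.11 ± 0.17), Pdgfb (1.83 ± 0.20) and Csf1 (1.37 ± 0.04) rose as well. Ptn, pleiotrophin and the most highly counted member of this list, fell from 496.6 and 510.3 CPM with DMSO to 429.8 and 396.9 CPM (−0.28 ± 0.04).

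Receptors went both ways, with 8 of 25 tested higher and 13 lower, and 14 of the 39 listed not tested. Epha2, an ephrin receptor, had 241 and 235 CPM with SSTC3 against 17.7 and 18 CPM with DMSO (3.73 ± 0.06, 13.3-fold), the largest change of the list. Pdgfra, the PDGF receptor of mesenchymal cells, had 11 and 10.2 CPM with SSTC3 against 19.7 and 18.9 CPM with DMSO (−0.86 ± 0.12), and Ephb4 had 74.5 and 74.3 CPM with SSTC3 against 143 and 141 CPM with DMSO (−0.93 ± 0.05). Neither overlapped between the groups, a condition of their choice. Pdgfrb (−0.79 ± 0.05) and Fgfr1 (0.77 ± 0.05), chosen after their values were seen, moved in opposite directions. Egfr itself, chosen likewise, had at most 1.32 CPM in any library and did not pass (adjusted p = 0.169).

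Of 19 tested dual-specificity phosphatases, 11 rose and 3 fell, against backgrounds of 27.1% and 26.5%. Dusp1, a nuclear phosphatase of ERK, JNK and p38, had 294 and 297 CPM with SSTC3 against 9.84 and 11.6 CPM with DMSO (4.79, counting error 0.08). Dusp5, a nuclear ERK phosphatase, had 142 and 138 CPM with SSTC3 against 4.43 and 4.44 CPM with DMSO (4.98, counting error 0.12), though 22% of its exonic bases are shared with another gene. Dusp6, its cytoplasmic counterpart, had 45.2 and 41.5 CPM with SSTC3 against 1.04 and 1.05 CPM with DMSO, a change of 5.37 with a counting error of 0.24. Dusp4 had 63.6 and 69.3 CPM with SSTC3 against 1.5 and 1.11 CPM with DMSO (5.66, counting error 0.22). Dusp2 (3.72, counting error 0.20) and Dusp8 (2.89 ± 0.09) rose too, and Dusp11, which acts on RNA rather than on MAP kinases, fell (−0.51 ± 0.05).

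Among 32 tested receptor and cascade inhibitors, 20 were higher and 4 lower, and 3 of the tested genes had entered only through their SSTC3 level. Spry4 had 30.6 and 33.9 CPM with SSTC3 against 0.403 and 0.409 CPM with DMSO (6.29, counting error 0.39) and Spry2 had 39.3 and 38.5 CPM with SSTC3 against 3.85 and 4.55 CPM with DMSO (3.21 ± 0.13). Errfi1, the EGF receptor inhibitor MIG6, had 200.1 and 194 CPM with SSTC3 against 12.5 and 12.2 CPM with DMSO (3.99, counting error 0.07), and Socs3, an inhibitor of cytokine receptors, had 58.8 and 58.5 CPM with SSTC3 against 7.19 and 7.42 CPM with DMSO (8.02-fold, adjusted p = 3.2e-82). All 4 genes were higher in both SSTC3 libraries than in either DMSO library, as their choice required. Rgs16, a regulator of G protein signalling, rose as well (8.01-fold, adjusted p = 2.95e-37).

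The RAS-ERK core had 8 of 24 higher and 8 lower (6 and 9 under library-total scaling), none by 2-fold. Ptpn11, the phosphatase SHP2, had 429 and 447 CPM with SSTC3 against 431 and 434 CPM with DMSO and did not pass (adjusted p = 0.709). Mapk3, the gene of ERK1, and Map2k1, the gene of MEK1, both chosen after their values were seen, did not pass either, at 0.01 ± 0.05 (adjusted p = 0.945) and −0.11 ± 0.06 (adjusted p = 0.103). The scaffold Ksr1 (−0.76 ± 0.10) and the exchange factor Sos1 (−0.54 ± 0.06) fell, and the adaptor Shc1 (0.53 ± 0.05) and Rras (0.58 ± 0.08) rose. In the JNK and p38 list 14 of 30 rose and 7 fell. Gadd45a, a growth arrest gene that binds the upstream kinase, had 31.4 and 31.6 CPM with SSTC3 against 2.36 and 3.97 CPM with DMSO (3.32, counting error 0.15), Gadd45g rose by 1.81 and the p38 activator Map2k3 by 1.12, while Mapk14, p38α itself, fell (−0.18 ± 0.05).

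**Figure D3:**
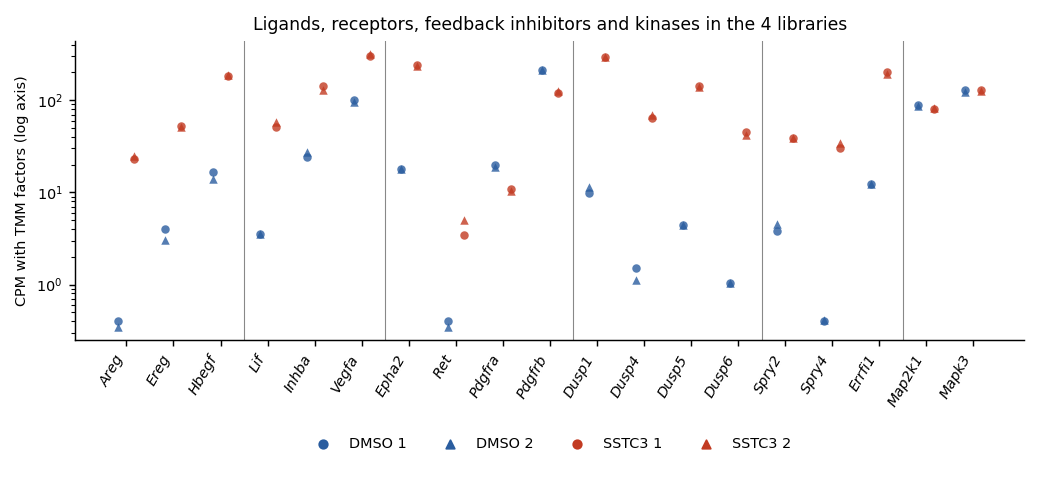
Levels of 19 genes of growth factor signalling in each library (y axis, CPM with TMM factors, log axis), marked as in the plot of proteostasis genes. Grey lines separate EGF receptor ligands, other ligands, receptors, DUSP phosphatases, other inhibitors and kinases. Ligands and inhibitors are higher in both SSTC3 libraries, Pdgfra and Pdgfrb lower, and the kinase genes at the right, Map2k1 and Mapk3, did not pass the test.

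Promoters of this class were searched for the cyclic AMP response element TGACGTCA and the CArG box, the site of SRF. The first was in 11.9% of the 42 members higher at 2-fold or more that had a window, in 3.68% of all tested genes with a window and in 2.03% of the genes of the table. The CArG box was in 2.38%, 1.58% and 1.81% in the same order, and in 7.41% of the 54 transcription factor genes higher at 2-fold or more. That box was in 2.92% of all genes higher and 2.72% of all genes lower at 2-fold or more. The response element was in 4.86% of all genes higher at 2-fold or more and 5.59% of all tested members of this class. For the other motifs searched, shares over all genes higher at 2-fold or more and all tested genes were 13.1% and 6.05% for the AP-1 site TGANTCA, 10.3% and 7.95% for the EGR core GCGTGGGCG or GCGGGGGCG, and 12.5% and 11.8% for the E box CACGTG. In the 42 members of this class, the AP-1 site and the EGR core were each in 4.76% and the E box in 16.7%. A heat shock core was in 23.8% of these members, 15.8% of all genes higher at 2-fold or more and 13.4% of all tested genes. Of the 54 transcription factor genes, 18.5% held the EGR core, 20.4% the E box and 5.56% the AP-1 site. The stretches show the element in the promoters of a ligand, Areg, of 3 inhibitors and of Dusp5 and Srf, the last 2 with CArG boxes; matches are in capitals.
Areg: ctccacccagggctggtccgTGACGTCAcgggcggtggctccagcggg
Errfi1: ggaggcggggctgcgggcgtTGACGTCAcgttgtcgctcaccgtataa
Dusp8: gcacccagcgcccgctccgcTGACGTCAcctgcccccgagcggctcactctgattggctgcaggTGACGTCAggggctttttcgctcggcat
Dusp1: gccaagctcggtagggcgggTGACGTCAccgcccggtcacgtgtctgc
Dusp5: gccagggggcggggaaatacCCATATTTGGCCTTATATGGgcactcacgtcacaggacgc
Srf: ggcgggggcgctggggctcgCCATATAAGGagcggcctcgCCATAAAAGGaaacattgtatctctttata
They lie, in this order, at chr5:91139518-91139565, plus strand, chr4:150854999-150855046, plus strand, chr7:142095320-142095411, minus strand, chr17:26508588-26508635, minus strand, chr19:53529043-53529102, plus strand, and chr17:46556195-46556264, minus strand. Dusp8 holds 2 response elements, and Dusp5 and Srf hold 2 CArG boxes each, which in Dusp5 abut.

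Transcription factors were followed by family, 587 of 758 listed genes being tested. In all, 209 were higher and 180 lower, and 83 and 29 of these passed 2-fold; 26 entered only through SSTC3 and 14 only through DMSO. Most tested members were higher among EGR and NAB (6 of 6), KLF and SP (15 of 17, none lower) and AP-1 genes (12 of 14, 1 lower). The same held for ETS (10 of 15, 3 lower) and for SMAD, SNAI and ZEB genes (10 of 17, 3 lower). FOX genes had 14 of 25 higher and 4 lower. ATF, CREB and CEBP genes had 13 of 25 higher and 6 lower (12 and 6 under library-total scaling). Of the tested EGR and NAB genes 3 entered only through SSTC3. Of the tested FOX genes 7 entered through 1 group only, 6 of them through SSTC3, so the FOX count is not given as support.

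KLF factors bind GC-rich promoters, and several are induced by serum or shear stress. Klf5, which drives proliferation in many tissues, had 53.4 and 55.8 CPM with SSTC3 against 8.17 and 7.94 CPM with DMSO (2.76 ± 0.10). Klf2 had 62.7 and 61 CPM with SSTC3 against 10.9 and 10.2 CPM with DMSO (2.55 ± 0.09) and Klf10, a gene induced by TGF-β, had 142 and 139 CPM with SSTC3 against 28.6 and 29 CPM with DMSO (2.29 ± 0.06). Both SSTC3 libraries were above both DMSO libraries in each case. Sp1, the constitutive factor of the family, rose too (0.68 ± 0.04). Maff, a small MAF protein of the AP-1 list, had 154 and 149 CPM with SSTC3 against 4.89 and 5.9 CPM with DMSO (4.81, counting error 0.11), and Myc had 78.8 and 78.2 CPM with SSTC3 against 3.51 and 3.62 CPM with DMSO (4.46, counting error 0.13).

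The PEA3 factors Etv5, at 30.7 and 32.9 against 0.978 and 1.93 CPM (4.45, counting error 0.21), and Etv4, at 24.3 and 25 against 7.13 and 5.61 CPM (1.95 ± 0.13), led the ETS family. They are textbook ERK targets. Etv6, a repressor of the same family, fell (−0.63 ± 0.07). Creb5, a CREB family member, had 41.8 and 44.5 CPM with SSTC3 against 5.06 and 5.84 CPM with DMSO (2.98 ± 0.12), and Srf itself had 238 and 235 CPM with SSTC3 against 96 and 94.2 CPM with DMSO (1.32 ± 0.05). Smad7, the inhibitory SMAD of TGF-β signalling, had 87.6 and 94.4 CPM with SSTC3 against 24.6 and 22.7 CPM with DMSO (1.94 ± 0.07), Skil, a SMAD corepressor, rose by 1.53 and Snai2, the repressor Slug, by 1.63. Runx1 rose (1.95 ± 0.09) as Runx3 fell (−0.79 ± 0.07), and Sox9, the chondrocyte regulator, had 39.2 and 43.8 CPM with SSTC3 against 10.3 and 9.99 CPM with DMSO (2.03 ± 0.10).

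HOX genes, which encode position along the body axis, were called lower more often than higher. Of 21 tested HOX genes 12 fell and 3 rose, against backgrounds of 26.5% and 27.1%, with a median of −0.55. Of the 39 listed, 18 were not tested. Of the tested ones 3 entered only through their DMSO level and 1 only through SSTC3, so neither the counts nor the median are given as support. Hoxc8 had 61.1 and 53.1 CPM with SSTC3 against 121 and 125 CPM with DMSO (−1.11 ± 0.06) and Hoxc6 had 58.5 and 52.4 CPM with SSTC3 against 115 and 115 CPM with DMSO (−1.05 ± 0.06). Hoxc4 (−1.21 ± 0.07), Hoxc9 (−0.99 ± 0.12) and Hoxc5 (−0.79 ± 0.06) of the same cluster fell too. The SSTC3 libraries were below the DMSO libraries for all 5.

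Of 29 other homeobox and T-box genes tested, 13 fell and 9 rose. Prrx1, a mesenchymal homeobox factor, had 141 and 139 CPM with SSTC3 against 235 and 244 CPM with DMSO (−0.77 ± 0.04) and Tbx15, a T-box factor of connective tissue, had 100.02 and 103 CPM with SSTC3 against 194 and 187 CPM with DMSO (−0.91 ± 0.05). Osr1, a marker of connective tissue progenitors, had 3.37 and 2.05 against 12.8 and 11.1 CPM (−2.14 ± 0.19). All 7 tested SOX genes were called, 5 lower and 2 higher, with Sox2, a stem cell factor, at 12 and 9.39 against 25.7 and 25.6 CPM (−1.26 ± 0.12) and Sox12 at 71.3 and 74.8 against 130.02 and 124 CPM (−0.79 ± 0.06). The orphan receptor Nr2f1 (−1.20 ± 0.09), Vgll4, a cofactor that competes with YAP for TEAD (−1.06 ± 0.08), Nfatc4 (−1.07 ± 0.09), Nfix (−0.69 ± 0.04) and Nfic (−0.67 ± 0.04) also fell, whereas Nfatc2 rose (1.93 ± 0.17). The fibroblast markers were lower in 9 of 14 cases, as stated above, and the part of that in these results was not tested.

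**Figure D4:**
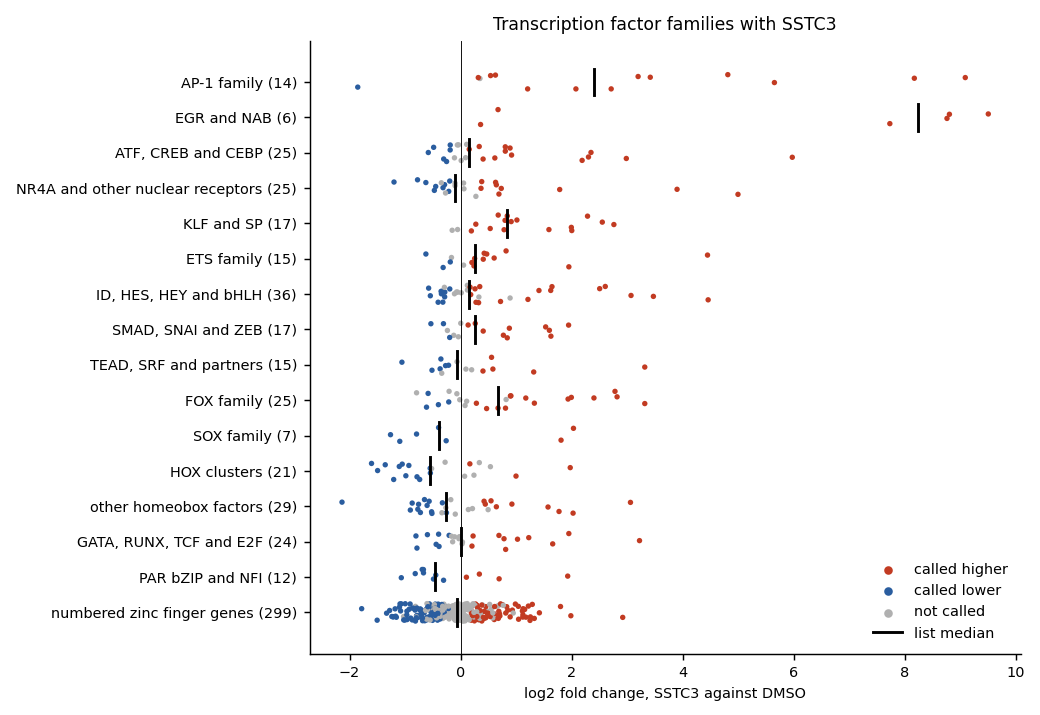
Log2 fold change of SSTC3 against DMSO (x axis) for the tested members of 16 transcription factor lists (y axis, number tested in brackets). Colours and bars are as in the plot of 4 classes, and Egr4, with 0 counts in both DMSO libraries, sits at a fitted value that is no bound. The KLF and AP-1 lists lie mostly to the right of 0. The HOX list has its median at −0.55, and 3 of its 21 members entered only through their DMSO level.

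The 299 tested zinc finger genes with numbered names, many of them KRAB repressors, showed 71 higher and 93 lower, with a median of −0.07. Zfp367 rose the most after Zfp36, with 164 and 157 CPM with SSTC3 against 42.9 and 38.2 CPM with DMSO (1.99 ± 0.06), and Zfp30 (−1.33 ± 0.18) and Zfp324 (−1.28 ± 0.13) fell. Regulators of mRNA decay and of unstable transcripts had 17 of 37 higher and 9 lower. Zfp36l2, which recruits deadenylases to AU-rich elements, had 419 and 415 CPM with SSTC3 against 165 and 160.3 CPM with DMSO (1.36 ± 0.04), and Cnot1, the scaffold of that deadenylase complex, had 419.7 and 425 CPM with SSTC3 against 576 and 568 CPM with DMSO (−0.44 ± 0.04). Of 64 genes of elongation control and Mediator 18 rose and 22 fell. Polr2a, the largest subunit of RNA polymerase II, had 659.8 and 715 CPM with SSTC3 against 555 and 543 CPM with DMSO (0.32 ± 0.04). The elongation factors Ell2 (1.11 ± 0.09) and Aff1 (0.93 ± 0.05) rose, and the BET proteins split, Brd2 at 0.55 ± 0.04 and Brd3 at −0.56 ± 0.05.

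Ribosomes are built from cytoplasmic ribosomal proteins, whose mRNAs are abundant and short, by a nucleolar assembly line, and mitochondria have ribosomes of their own. Cytoplasmic ribosomal protein genes rose nearly as a block, by small amounts. Of 81 tested genes 75 were higher and none was lower, against a background of 27.1%, and the median log2 fold change was 0.24 (0.19, with 70 higher and 1 lower, when scaled by library totals). Their sum was 64129 and 64604 CPM with SSTC3 against 57647 and 56270.0 CPM with DMSO, so the groups do not overlap.

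Rplp0, a stalk protein, had 3197 and 3268 CPM with SSTC3 against 2671 and 2644 CPM with DMSO (0.28 ± 0.03), and Rpl10a had 1200.4 and 1146 CPM with SSTC3 against 852 and 844 CPM with DMSO (0.47 ± 0.03). Rpl22l1, a paralog of Rpl22, had 97.6 and 88.8 CPM with SSTC3 against 62.9 and 65.1 CPM with DMSO (0.54 ± 0.06), the largest change. Rps27 (0.53 ± 0.04), Rpl38 (0.42 ± 0.05) and Rps28 (0.41 ± 0.05) rose in the fit of 4 libraries and were not called in a fit of all 12. Ribosomal protein genes have many processed pseudogenes, so reads may have been split, and features of rRNA-like sequence differed between the groups as well. CT010467.1, annotated as rRNA, had 1288 and 1362 CPM of the library total with SSTC3 against 2522 and 3700 with DMSO, and Gm23935 had 2220 and 2456 against 4247 and 5486. Their part in the result was not tested.

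The nucleolar and mitochondrial lists did not move with the cytoplasmic ribosomal proteins. Of 76 genes of ribosome biogenesis, 33 fell and 11 rose, and of 77 mitochondrial ribosomal proteins 21 fell and 5 rose (28 and 2 under library-total scaling), with medians of −0.08 and −0.08 (−0.14 and −0.13 when scaled so). Polr1a, the catalytic subunit of RNA polymerase I, had 149.8 and 161 CPM with SSTC3 against 226 and 224 CPM with DMSO (−0.53 ± 0.04). Nop2, an rRNA methyltransferase, had 189 and 188 CPM with SSTC3 against 269 and 251 CPM with DMSO (−0.46 ± 0.04), and Ncl, nucleolin, had 1595 and 1546 CPM with SSTC3 against 1811 and 1830.3 CPM with DMSO (−0.21 ± 0.03). Both SSTC3 libraries were below both DMSO libraries for these 3. Ltv1, a factor of small subunit assembly, went up (0.58 ± 0.07), as did Utp15 (0.50 ± 0.06). Among mitochondrial ribosomal proteins Mrpl12 had 44.7 and 43.6 against 62.1 and 64.9 CPM (−0.52 ± 0.07) and Mrps6 had 61.2 and 64 against 43.8 and 46.2 CPM (0.47 ± 0.07).

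Of 69 translation factors tested, 27 rose and 19 fell (19 and 23 under library-total scaling). Eif1, which selects the start codon, had 786 and 784 CPM with SSTC3 against 477 and 501 CPM with DMSO (0.68 ± 0.04), and the helicase gene Eif4a2 had 658 and 664 CPM with SSTC3 against 414 and 438 CPM with DMSO (0.63 ± 0.04). Eef2, the translocase, had 4581 and 4764 CPM with SSTC3 against 3901 and 3786 CPM with DMSO (0.28 ± 0.03), whereas Eef2k, the kinase that inhibits it, had 18.9 and 23.3 CPM with SSTC3 against 35.8 and 34.1 CPM with DMSO (−0.73 ± 0.09). Eif4ebp1, an inhibitor of cap-dependent initiation, rose (0.50 ± 0.04), and Eif5b, which joins the subunits, fell (−0.49 ± 0.05).

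**Figure D5:**
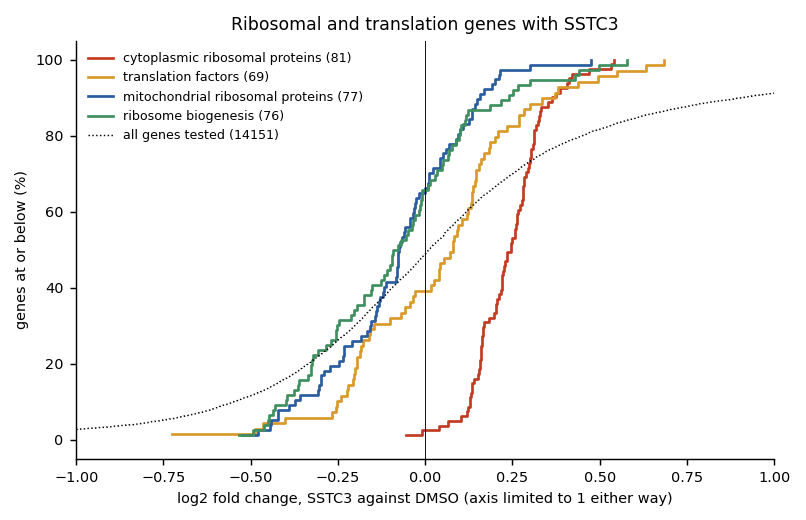
Cumulative share of genes (y axis, %) at or below a log2 fold change of SSTC3 against DMSO (x axis) for 4 lists and all 14151 genes tested. The curve of the 81 cytoplasmic ribosomal proteins lies to the right of 0 almost throughout, with its median at 0.24; those of ribosome biogenesis and mitochondrial ribosomal proteins cross 0 above the midpoint.

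Mitochondria make ATP with 5 complexes, partly encoded by their own genome and mostly by the nucleus, and import the nuclear products with dedicated translocases and chaperones. Of 180 tested mitochondrial genes 41 were higher and 44 lower (29 and 59 under library-total scaling), beside backgrounds of 27.1% and 26.5%, and 95 did not pass. In complex I, 30 of 37 nuclear genes did not pass, 4 rose and 3 fell (1 and 7 under library-total scaling), the largest change being Ndufb4 (−0.28 ± 0.09), a call that ended without SSTC3 replicate 1. Complex IV had 7 of 12 higher and none lower (4 higher under library-total scaling), such as Cox7c, at 84.8 and 87.1 against 65.8 and 65.6 CPM (0.39 ± 0.06), and Cox4i1, at 396 and 386 against 346 and 334 CPM (0.20 ± 0.04). Complex V had 6 of 17 higher and 2 lower (3 and 4 under library-total scaling), and Atp5b, its catalytic subunit, did not pass (1464 and 1455 against 1467 and 1439 CPM, adjusted p = 0.89). Of 12 tested genes of the mitochondrial genome 6 rose and 1 fell (6 and 2 under library-total scaling), with mt-Co1 at 5368 and 4999 against 4099 and 4263 CPM (0.31 ± 0.03) and mt-Nd3 at 48.9 and 41.9 against 51.3 and 54.9 CPM (−0.23 ± 0.07). The sum of this list was 16532 and 15404 CPM with SSTC3 against 14090.0 and 15015 CPM with DMSO, so that SSTC3 replicate 2 lies near DMSO replicate 2.

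Larger changes were found in single genes of other mitochondrial functions. Hspe1 and Hspd1 encode the chaperonin HSP10 and HSP60 and are read in opposite directions from the shared promoter shown above. Hspe1 had 323 and 345 CPM with SSTC3 against 190.1 and 188 CPM with DMSO (0.82 ± 0.04) and Hspd1 had 1632 and 1567 CPM with SSTC3 against 1218 and 1261 CPM with DMSO (0.37 ± 0.03). Most other import factors moved the other way or did not pass, 13 of 32 in this list being lower and 5 higher, with Tomm70a, an outer membrane receptor, at 301 and 294 against 399.6 and 417 CPM (−0.46 ± 0.04) and Phb, prohibitin, at 119 and 127 against 176 and 179 CPM (−0.53 ± 0.05). Polrmt, the RNA polymerase of the mitochondrial genome, had 26.1 and 28.3 CPM with SSTC3 against 54.7 and 52.1 CPM with DMSO (−0.97 ± 0.08). In the citric acid cycle list, 10 of 27 fell and 5 rose. Ogdh, 2-oxoglutarate dehydrogenase, had 88.6 and 94.9 CPM with SSTC3 against 153 and 148 CPM with DMSO (−0.72 ± 0.05), Aco1 fell by 0.56 on the log2 scale and Pdp1, the phosphatase that activates pyruvate dehydrogenase, rose (1.02 ± 0.13).

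Among the largest changes outside these classes, P2rx7, an ATP-gated channel, had 31.9 and 31.6 CPM with SSTC3 against 0.46 and 0.759 CPM with DMSO (5.69, counting error 0.32), and Phlda1, a gene of growth factor response, had 91.96 and 90.01 CPM with SSTC3 against 2.93 and 2.86 CPM with DMSO (4.97, counting error 0.15), with 33% of its exonic bases shared. Among the largest falls, Emilin1, an elastic fibre protein, had 47.9 and 44.3 CPM with SSTC3 against 157 and 154 CPM with DMSO (−1.75 ± 0.06), Pcdh18, a protocadherin, had 31.6 and 32.8 CPM with SSTC3 against 97.7 and 97.8 CPM with DMSO (−1.60 ± 0.07), Hyal2, a hyaluronidase, had 15.5 and 16.4 CPM with SSTC3 against 51.1 and 44.8 CPM with DMSO (−1.59 ± 0.09) and Chst12, a chondroitin sulfotransferase, had 14.7 and 14 CPM with SSTC3 against 40.8 and 39.5 CPM with DMSO (−1.48 ± 0.10). The groups did not overlap for any of them, which was a condition of the choice. Cacna1a, a calcium channel subunit (−1.58 ± 0.10), and Kif26b, a kinesin of the planar polarity route (−1.66 ± 0.14), fell as well.

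The series holds another treatment meant to raise CK1α, overexpression in cells labelled MEF (mouse embryonic fibroblasts), with 2 libraries against 2 controls that are not shared with the SSTC3 comparison. In one fit of all 12 libraries 6.95% of 17105 genes were called there, and Csnk1a1 itself did not pass (−0.01 ± 0.04, adjusted p = 0.927), so the direction of that treatment rests on its label. The SSTC3 effect differed from that effect in 32.7% of genes; cell set and treatment cannot be told apart in this contrast. Hspb1 changed by −0.37 ± 0.07 with overexpression (adjusted p = 9.74e-05), a difference of 5.96 ± 0.10 between the effects. Dusp6 was at −0.27 ± 0.08 there (adjusted p = 0.0179; difference 5.63 ± 0.18) and Epha2 at 0.00 ± 0.04 (difference 3.72 ± 0.07, adjusted p = 8.65e-64). For Jun the difference was 5.54 ± 0.07 and for Myc 4.34 ± 0.09. Of the 81 cytoplasmic ribosomal proteins, 29 fell and 1 rose with overexpression, and for 66 the effects differed, Rplp0 among them (0.27 ± 0.04, adjusted p = 4.46e-08). In complex I the effects differed for 4 of 37 genes. The mitochondrial genome could not be compared, as its genes had no counts in the overexpression libraries.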

How the data were processed

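Poly(A)+ RNA was sequenced as paired reads, and the authors deposited 1 table of raw read counts per Ensembl gene for each library. The submitters' processing notes name HISAT2, featureCounts and mm10; no version or strand setting is given in the sources used here. Each table had 54532 features, of which 37 matched no GENCODE M21 symbol. The 2 SSTC3 and 2 DMSO tables were fitted with edgeR 4.0.16 in R 4.3.3: genes were kept by filterByExpr, libraries scaled by TMM, tested by robust quasi-likelihood F tests on 2 residual degrees of freedom and adjusted by the Benjamini-Hochberg method over 14151 genes. To the 2 residual degrees of freedom the fit added a median of 254.16 prior ones, taken from the spread across genes. The SE is the log2 fold change divided by the square root of F. The contrast with overexpression came from 1 fit of all 12 libraries, with Benjamini-Hochberg adjustment in edgeR over 17105 genes. The procedure was tested on simulated data.

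The members and the 48 gene lists were chosen with earlier results of these data known. Named genes are, per list, up to 6 with the largest change among those called, not overlapping and at 4 CPM or more, and the 2 with the highest level, plus the 20 largest rises and falls over all genes at 10 CPM or more. Replicates differed by more than sampling noise (chi-square per degree of freedom 2.29 for SSTC3 and 2.99 for DMSO, over genes whose 2 counts sum to at least 20), so neither pair was merged as a library deposited in duplicate. Same-numbered libraries did not deviate together (r = −0.02 over 14151 genes). With 16843745 to 17052569 counts per library and 2 replicates, precision rests on a spread shared between genes. Alternatives used DESeq2 1.42.0, limma 3.58.1 and other scalings, filters and samples. Promoter sequences are RefSeq's for GRCm38.p6, matched by symbol for 9869 of the genes tested. Values of some list members are not reported here.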

Additional observations from a re-analysis of the deposited data

How the results depend on the processing

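Scaled by RLE factors, upper quartile or library totals, tested with DESeq2 or limma-voom, filtered otherwise, fitted with all 12 libraries, or with a library left out in turn, the counts of genes called higher (3830) and lower (3749) stayed within 1.5 times. Library totals turned the balance to 3290 higher and 4419 lower, and DESeq2 gave 2824 and 2863. Leaving out 1 library gave 3079 to 3372 higher and 3046 to 3346 lower. A test against a minimum 2-fold change left 627 genes, fewer by its construction. The replicate block, with numbers that did not pair the samples, gave 7303 calls in place of 7579. The contrast with overexpression gave 5600 calls, 5853 with library totals and 4805 to 4950 without 1 library. Of 351 named genes, 40 lost the call under at least 1 setting; of the 336 called, none reversed, while some uncalled ones near 0, such as Uba1 and Ptpn11, changed sign. Library totals shift the median of all genes from 0.01 to −0.04, and list medians near 0 changed sign with it, as for proteostasis (0.02 to −0.03). Depth limits genes with few DMSO counts, such as Areg and Spry4, whose fold changes have wide counting errors.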

Other observations

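Gene structure went with the direction of change among protein-coding genes. The 684 genes whose longest transcript has 1 exon were higher with SSTC3 in 33.8% of cases and lower in 21.2%, with a median log2 fold change of 0.10, or 0.05 when scaled by library totals. The 1506 genes with over 20 exons were higher in 17.9% and lower in 45.5%, with a median of −0.13, or −0.19 with library totals. With genes cut into 5 equal bins by genomic span, the shortest bin had 33.3% higher and 22.2% lower, and the longest bin had 19.96% higher and 38.9% lower. By mean DMSO CPM, the lowest bin had 31.7% higher and 7.91% lower, and the highest bin had 26.7% higher and 46.3% lower. The DMSO level is no gene structure and enters the fold change itself. The lowest bin runs from 0.0 to 5.83 CPM, where genes have little room to fall, so this split is not given as support. By exonic length, the shortest bin had 30.2% higher and 18.0% lower, and the longest bin had 22.7% higher and 42.5% lower. Exon number and span go together between genes, and the separate parts of all these features were not tested.

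Outside protein-coding genes, 22.9% of 284 lincRNAs were higher and 13.0% lower, and 17.04% of 769 processed pseudogenes were higher and 3.64% lower. Reads of processed pseudogenes may belong to their parent genes.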
